A study of Mus musculus with 2 samples.

Results

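Smooth muscle cells of the intestinal lamina propria were identified in 2 scRNA-seq libraries by their own transcripts. A cell was a member when its barcode held at least 1000 unique molecular identifiers (UMIs, each a tag of 1 captured RNA molecule), at most 20% of them mitochondrial, at least 2 UMIs of *Myh11*, and in addition at least 2 UMIs of *Actg2* or at least 1 of *Des*. A member had no UMI of the epithelial gene *Epcam* and none of the leukocyte gene Ptprc. Of 16190 cells that passed the depth and mitochondrial limits, 118 (0.729%) were members. Because *Pdgfra* marks fibroblasts, the 77 members without a *Pdgfra* UMI (*Pdgfra*- members) and the 41 members with at least 1 (*Pdgfra*+ members) are described separately. Members were thus chosen by the UMIs of *Myh11*, *Actg2*, *Des*, *Epcam* and Ptprc and divided by those of *Pdgfra*, whose levels are therefore descriptions, as is every difference between members and other cells.

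The study asked how the stroma around intestinal tumours differs when the epithelium lacks the transcription factor *Lef1*. Both libraries came from C57BL/6 mice that carry the ApcMin allele, which predisposes the intestine to adenomas, and the labels give an age of 11 weeks. The ApcMin library is ApcMin/+;*Lef1* +/+, and the VApcMinL library is ApcMin/+;*Lef1* fl/fl; Villin-Cre, in which the Villin promoter drives Cre in the intestinal epithelium and not in muscle. Live lamina propria cells were sorted by flow cytometry as negative for Ter119, EpCAM and CD45, which are surface proteins of red blood cells, epithelium and leukocytes, and were processed on a droplet platform that reads the 3′ end of each transcript. How many mice contributed to a library is not given in the sources used here. Each genotype has 1 library, so genotype, mouse, sort and library cannot be told apart, and no test of the genotype was possible. Intervals given below are 95% exact intervals that cover counting error only.

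Smooth muscle contracts when calcium activates myosin light chain kinase, which lets smooth muscle myosin pull on actin filaments that are anchored in dense bodies and tied together by desmin. Much of this machinery is transcribed under serum response factor (SRF) and its partner myocardin, which act at a short DNA element named the CArG box. In the intestinal wall such cells form the muscularis propria, the muscularis mucosae and fine strands in the villi, and they also sheathe blood vessels together with pericytes.

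The files hold every barcode, with 93203061 UMIs in the ApcMin library and 101609269 in the VApcMinL library. Free RNA, read from the empty droplets, carried little muscle RNA. If the deepest member had consisted of free RNA alone, it would have held 0.450 UMIs of *Myh11* in ApcMin and 0.599 in VApcMinL. The libraries shared 24 cell tags, and none of them belonged to a member. *Lef1*, the targeted gene, is not informative in these cells, since 1 UMI was found in the 26 ApcMin members and 0 in the 92 VApcMinL members, and a 3′ tag does not report on a deleted exon.

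The ApcMin library contained 26 members among 7593 cells, a share of 0.342% (0.224 to 0.501), and the VApcMinL library contained 92 among 8597, a share of 1.07% (0.864 to 1.31). The share was thus 3.13 times as large in VApcMinL (2.0 to 5.03). The same ratio was 3.12 for *Pdgfra*- members, with 17 and 60 cells, and 3.14 for *Pdgfra*+ members, with 9 and 32 cells. Other kinds of cell also differed in share. Endothelial-type cells, which carried both *Pecam1* and *Cdh5*, were 3.60 times as frequent in VApcMinL (3.02 to 4.31), whereas fibroblast-type cells, with at least 2 UMIs each of *Pdgfra* and *Dcn*, stood at 0.844 times their ApcMin share. Plasma-type cells, identified by *Jchain* and *Mzb1*, were at 1.38 times. The part that the make-up of the sort had in the share of members was not tested.

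The median depth of the *Pdgfra*- members was similar in both libraries, at 7258 UMIs in ApcMin and 7019 in VApcMinL. *Pdgfra*+ members were deeper, with medians of 12742 and 12940 UMIs. A deeper cell is more likely to show a *Pdgfra* UMI, and after every member was thinned to 1000 UMIs the *Pdgfra*+ share declined from 34.6% to 19.2% in ApcMin and from 34.8% to 17.4% in VApcMinL. Mitochondrial RNA made up a median of 7.79% of the UMIs of *Pdgfra*- members in ApcMin and 4.86% in VApcMinL, and 3.28% and 3.73% in *Pdgfra*+ members.

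Of the 2 muscle markers that the selection did not use, *Tagln* was found in most *Pdgfra*- members and *Cnn1* in fewer. *Tagln*, an actin-bundling protein of smooth muscle, was found in 16 of 17 ApcMin and 57 of 60 VApcMinL members, and still in 88.2% and 86.7% after thinning. *Cnn1*, the smooth muscle calponin, was found in 13 of 17 and 36 of 60, and after thinning in 58.8% and 28.3%. In plasma-type cells, which should lack both, *Tagln* was found in 1.21% of ApcMin cells at a median depth of 6039.5 UMIs and in 2.32% of VApcMinL cells at 3747 UMIs, and *Cnn1* in 0% and 0.551%. For *Cnn1* in ApcMin, the interval of 0 of 580 cells reaches a share of 0.634%.

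The edges of the selection were gradual. Exactly 2 *Myh11* UMIs, the least allowed, were held by 7 ApcMin and 21 VApcMinL members, and their *Tagln* was at 863 and 1471 counts per 1000000 UMIs (CPM), against 8273 and 5235 CPM in members with 3 or more *Myh11* UMIs. Just outside, the 11 and 50 cells that met every other condition with 1 *Myh11* UMI had *Tagln* at 437 and 410 CPM. Another 21 and 60 cells had 2 or more *Myh11* UMIs but missed the condition on *Actg2* and *Des*, and 17 and 47 of them carried *Pdgfra*. The cells that entered through *Des* alone, 12 and 38, had *Tagln* at 1585 and 1405 CPM, whereas the 12 and 49 that entered through both *Actg2* and *Des* had 12287 and 7358 CPM. In *Tagln*, the members at the edge lay nearer to the cells just outside than to the other members.

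Because SRF acts at the CArG box, this element was searched for in the 250 bases before each start site in RefSeq (build GRCm38.p6). Both strands were covered, as the motif reads the same on each. The search was strict and allowed only A or T between CC and GG, so a box with a substitution would be missed. The strict motif occurred in 482 of 32851 windows (1.47%), and in 439 of 27025 genes (1.62%). In the contractile list it occurred in 2 of 11 matched genes, *Myl6* and *Myl9*. In the list of dense bodies and intermediate filaments it occurred in 5 of 20 (*Fhl1*, *Fhl2*, *Filip1l*, *Ldb3* and *Vcl*), and among the regulators in *Srf* alone of 11. The dystrophin list had 1 of 16, and the calcium, receptor, matrix and energy lists had 0 of 15, 23, 14 and 11. Lists of other cells also held the motif, with 3 of 8 striated muscle, 1 of 4 glia and neuron, 1 of 5 epithelial and 1 of 11 vascular genes. Fibroblast and endothelial genes had 0 of 8 and 0 of 4. *Myh11*, *Actg2* and *Tagln* had no entry in the table, and the windows of *Acta2*, *Cnn1* and *Des* held no strict match. The 3 windows below are shown because their genes belong to the myosin complex or to its regulator, with the CArG boxes in capitals. The box of *Myl9* begins 161 bases before the start (window chr2:156775214-156775463, plus strand), that of *Myl6* 50 bases before 1 of its 2 listed starts (chr10:128493010-128493259, minus strand; the window of the other, chr10:128493887-128494136, holds none), and those of *Srf* 82 and 62 bases before it (chr17:46556163-46556412, minus strand). A match describes the sequence and is not a measured binding site, and the part of SRF in the levels below was not tested.
Myl9: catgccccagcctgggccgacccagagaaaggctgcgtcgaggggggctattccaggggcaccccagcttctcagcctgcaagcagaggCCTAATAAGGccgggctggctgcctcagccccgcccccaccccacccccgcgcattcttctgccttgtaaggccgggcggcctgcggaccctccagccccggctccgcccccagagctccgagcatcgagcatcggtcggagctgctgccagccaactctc
Myl6: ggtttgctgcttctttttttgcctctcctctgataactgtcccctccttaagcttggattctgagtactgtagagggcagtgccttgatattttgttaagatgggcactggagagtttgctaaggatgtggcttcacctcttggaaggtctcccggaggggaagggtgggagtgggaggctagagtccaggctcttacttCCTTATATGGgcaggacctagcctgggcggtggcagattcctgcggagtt
Srf: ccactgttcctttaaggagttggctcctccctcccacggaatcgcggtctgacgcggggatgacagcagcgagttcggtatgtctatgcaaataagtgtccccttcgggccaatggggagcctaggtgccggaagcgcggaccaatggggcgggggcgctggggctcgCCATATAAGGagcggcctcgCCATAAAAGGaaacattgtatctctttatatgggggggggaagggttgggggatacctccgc

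The filament genes gave the members their character. *Myh11*, smooth muscle myosin heavy chain (chr16:14194535-14291372, minus strand, GRCm38 with GENCODE vM21), was at 4443 CPM in the summed *Pdgfra*- members of ApcMin (4075 to 4834) and at 3491 CPM in VApcMinL (3325 to 3664). In single ApcMin members it ran from 7.72 through a median of 47.0 to 66.4 UMIs per 10000, and in VApcMinL from 1.11 through 21.8 to 119, so the libraries overlapped almost completely. *Acta2*, smooth muscle alpha-actin, was at 10995 and 6830 CPM and was found in 15 of 17 and 56 of 60 members. Its single-cell values ran from 0 through 120 to 233 UMIs per 10000 in ApcMin and from 0 through 52.4 to 295 in VApcMinL, a lower median with a wider range. *Tagln* was at 10674 and 6324 CPM, with medians of 104 and 47.1 UMIs per 10000 and highest cells of 222 and 270.

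*Actg2*, the gamma-actin of visceral muscle (chr6:83512905-83536265, minus strand), had the opposite order, with 1113 CPM in ApcMin and 1546 CPM in VApcMinL. Its median member was nevertheless lower in VApcMinL, at 5.6 UMIs per 10000 against 7.31, and so was its highest cell, at 102 against 117. A summed level weighs deep cells more, and 1 cell held 24.1% of the 730 VApcMinL UMIs and 1 held 18.5% of the 135 ApcMin UMIs. *Cnn1* was at 882 and 733 CPM, with medians of 4.88 and 3.02 per 10000 and highest cells of 54.5 and 55.7. Desmin (*Des*), the intermediate filament of muscle, was at 1154 and 1374 CPM. Fibroblast-type cells had 31.8 and 41.7 CPM of *Tagln* and 1.10 and 1.97 CPM of *Actg2*.

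**Figure D1:**
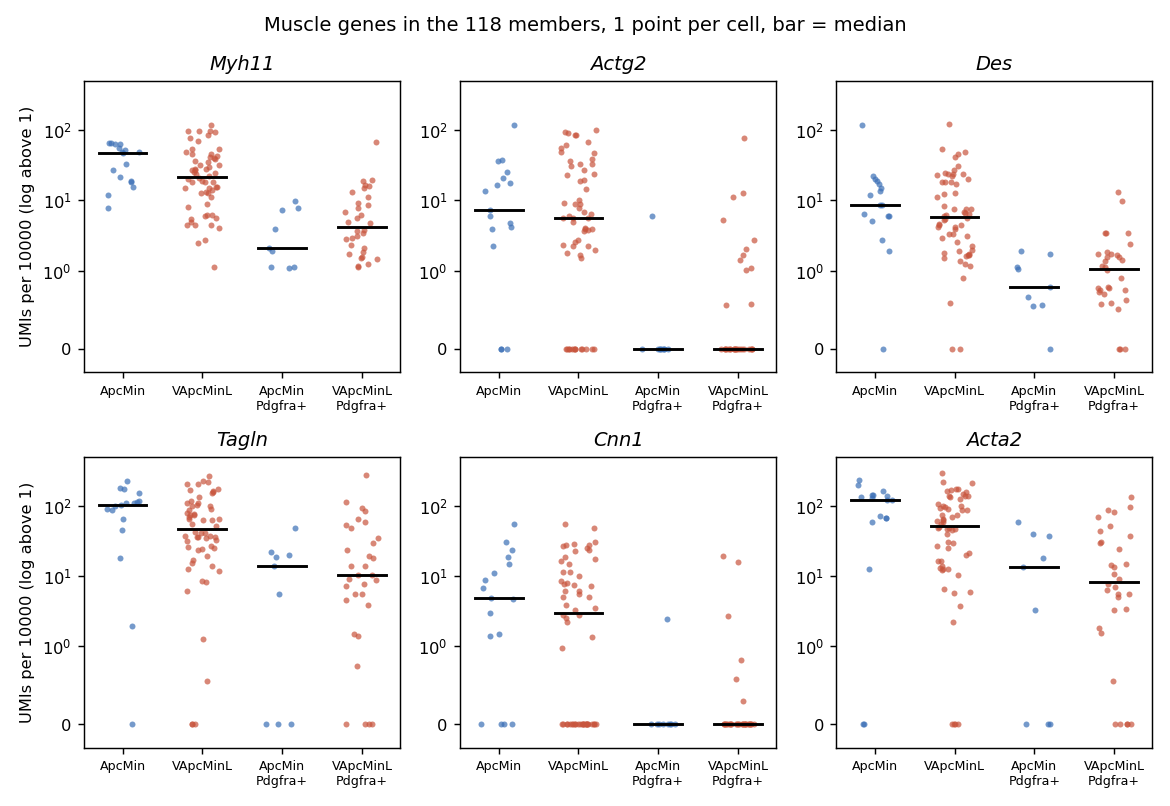
UMIs per 10000 of each member for genes of the selection and for muscle genes it did not use, in *Pdgfra*- and *Pdgfra*+ members of the ApcMin (blue) and VApcMinL (red) libraries; each point is 1 cell and the bar is the median. The libraries overlap for each gene, and *Pdgfra*+ members lie lower, with medians for *Tagln* of 14 and 10.2 UMIs per 10000 against 104 and 47.1.

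The rest of the actomyosin apparatus was present at comparable breadth. The tropomyosins that line the actin filament, *Tpm1* and *Tpm2*, were at 5613 and 4756 CPM in ApcMin and 4414 and 3874 CPM in VApcMinL. The myosin light chains *Myl9* (regulatory) and *Myl6* (essential) were at 4640 and 6948 CPM in ApcMin and 3413 and 4825 CPM in VApcMinL. *Mylk*, the kinase that phosphorylates the regulatory light chain, was at 3421 and 2979 CPM. *Lmod1*, which nucleates actin filaments in smooth muscle, was at 775 and 519 CPM. *Cald1* (caldesmon), an actin-binding brake on myosin, was at 2992 and 2483 CPM. All 14 listed genes had a UMI in the *Pdgfra*- members of both libraries, and *Myh10*, the nonmuscle myosin, was the scarcest of them, with 1 and 15 UMIs.

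The genes with the largest fold over fibroblast-type cells in both libraries, a consequence of the selection, were led by *Myh11*, *Acta2*, *Tagln*, *Actg2* and *Cnn1*. Several of the leading 20 are not parts of the filament itself. *Npnt* (nephronectin, an integrin ligand) was 43.2-fold over fibroblast-type cells in ApcMin and 22.9-fold in VApcMinL. *Pln* (phospholamban, which restrains the calcium pump of the sarcoplasmic reticulum) was 57.5-fold and 20.1-fold higher, and *Sorbs2*, an adaptor of actin-based adhesions, 56.0-fold and 22-fold. *Pdlim3*, which binds alpha-actinin, was 38.3-fold and 22.7-fold higher. *Pgm5*, an adhesion-associated protein of muscle, stood at 19.0-fold and 20.4-fold.

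Anchoring proteins were also abundant. The dense bodies and intermediate filaments list has 23 genes, and each had a UMI in the *Pdgfra*- members of both libraries. *Csrp1*, a cytoskeletal LIM protein, was at 1376 and 1220 CPM, *Flna* (filamin, an actin crosslinker) at 1739 and 1302 CPM, and *Synpo2*, a protein of the Z-disc and dense body, at 330 and 464 CPM. *Synm* (synemin, an intermediate filament that joins desmin) was at 132 CPM in ApcMin and 373 CPM in VApcMinL, a ratio of 2.83 (1.69 to 5.05), and was the member of this list past 2-fold between libraries.

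Regulators were sparse. *Myocd* (myocardin), the partner of SRF, was at 90.7 and 88.9 CPM and was found in 6 of 17 and 24 of 60 *Pdgfra*- members. Fibroblast-type cells had 0.575 and 1.41 CPM. *Srf* itself was at 49.5 and 76.2 CPM, in 5 and 24 members. Of the factors of gut mesenchyme, *Nkx2-3* was at 429 and 409 CPM and *Foxf1* at 157 and 243 CPM. *Mef2c*, a factor of muscle and vessel development, was at 577 and 267 CPM.

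Genes of calcium handling and excitability were found at low levels. *Atp2a2*, the calcium pump of the sarcoplasmic reticulum, was at 610 and 464 CPM, and *Itpr1*, its inositol trisphosphate-gated release channel, at 231 and 191 CPM. *Cacna1c*, the pore of the L-type calcium channel, was at 165 and 88.9 CPM and was found in 8 of 17 and 21 of 60 members. *Jph2* (junctophilin), which holds the reticulum near the plasma membrane, was at 124 and 102 CPM, against 1.89 and 1.56 CPM in fibroblast-type cells. *Pln* was at 593 and 207 CPM but came from only 8 and 14 members, of which 13 also carried *Notch3*.

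The signals that a muscle cell can receive were unevenly represented. *Gucy1a1* and *Gucy1b1*, the subunits of the nitric oxide receptor, were at 453 and 214 CPM in ApcMin and 282 and 186 CPM in VApcMinL. The endothelin receptor *Ednrb* was at 272 and 203 CPM. *Chrm2*, a muscarinic acetylcholine receptor, was at 41.2 and 180 CPM, from 2 and 10 members. For *Chrm3*, the other muscarinic receptor of gut muscle, 0 and 4 UMIs were found, and none were found for the tachykinin receptors *Tacr1* and *Tacr2* or the oxytocin receptor *Oxtr*. A floor of 3 UMIs equals 24.7 CPM in the ApcMin members and 6.35 CPM in the VApcMinL members, so levels near or below these could be missed at this depth. The exact interval of 0 UMIs in the ApcMin members reaches 30.4 CPM.

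Membrane, caveolar and matrix genes completed the picture. *Dmd* (dystrophin) was at 363 and 436 CPM, *Itga1*, a collagen-binding integrin, at 503 and 523 CPM, and *Cav1*, the caveolar coat protein, at 214 and 224 CPM. The basement membrane collagen *Col4a1* was at 602 and 764 CPM, below its 1196 and 1155 CPM in fibroblast-type cells. *Ckb*, the creatine kinase of smooth muscle, was at 1212 and 1018 CPM, and the kinase of striated muscle, *Ckm*, had 3 and 18 UMIs.

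The *Pdgfra*+ members carried many muscle genes at lower levels, and some of these genes were found in few of the cells. Their *Myh11* was at 344 CPM in ApcMin and 745 CPM in VApcMinL, and 5 of 9 and 13 of 32 sat at exactly 2 UMIs. *Tagln* was at 1067 and 2379 CPM, found in 6 of 9 and 28 of 32, and *Acta2* at 1445 and 1966 CPM. *Actg2* was at 42.0 and 182 CPM, found in 1 of 9 and 12 of 32. *Cnn1* was found in 1 of 9 and 6 of 32, *Lmod1* in 1 and 11 and *Pln* in 0 and 4. The nonmuscle *Myh10* was found in 6 of 9 and 22 of 32, against 1 of 17 and 10 of 60 *Pdgfra*- members. Both *Actg2* and *Des* were satisfied in 0 of 9 and 7 of 32, and 8 and 22 entered through *Des* alone. In VApcMinL the highest *Pdgfra*+ member held 271 UMIs of *Tagln* per 10000, marginally above the highest *Pdgfra*- member, whereas in ApcMin the highest held 48.4.

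Fibroblast genes were high in the *Pdgfra*+ members. *Dcn* (decorin), a collagen-binding proteoglycan of fibroblasts, was at 9534 and 6417 CPM, against 2679 and 1876 CPM in *Pdgfra*- members and 19682 and 18396 CPM in fibroblast-type cells. *Dcn* is also abundant in free RNA, at 2675 and 3790 CPM of the empty droplets, and a *Dcn* UMI was found in 35.9% and 41.9% of plasma-type cells. *Col6a1*, a chain of the microfibrillar collagen VI, was at 2520 and 1708 CPM in *Pdgfra*+ members, above its 1145 and 1158 CPM in fibroblast-type cells and its 190 and 296 CPM in *Pdgfra*- members. *Bmp5*, a ligand made by the Pdgfra-high fibroblasts under the epithelium, was at 395 and 317 CPM against 11.6 and 29.5 CPM in fibroblast-type cells. *Sox6*, a transcription factor of those subepithelial fibroblasts, was at 176 and 197 CPM against 3.09 and 10.2 CPM, and *Wnt4*, a Wnt ligand, at 353 and 160 CPM against 14.5 and 32.0 CPM. *Wif1*, a secreted Wnt inhibitor of the same fibroblasts, was at 8.40 and 108 CPM. Only some *Pdgfra*+ members held these genes, with *Bmp5* in 5 of 9 and 23 of 32, *Sox6* in 4 and 10 and *Wif1* in 1 and 7. Of the other genes of the 12 on the subepithelial list, *F3* was found in 3 and 12, *Nrg1* in 2 and 12, *Foxl1* in 2 and 11 and *Bmp7* in 3 and 10. *Bmp3* was found in 3 and 7, *Edn3* in 3 and 4, *Frzb* in 0 and 7, *Scg2* in 0 and 1 and *Itgbl1* in 0 and 0. The whole list summed to 1243 and 1325 CPM, against 193 and 316 CPM in fibroblast-type cells. The median depth of the *Pdgfra*+ members was near that of fibroblast-type cells, at 13488.5 UMIs in ApcMin and 10795 in VApcMinL, and 0 of 9 and 1 of 32 of them were among the highest Scrublet scores. The part that droplets with several cells had in these profiles was not tested further.

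**Figure D2:**
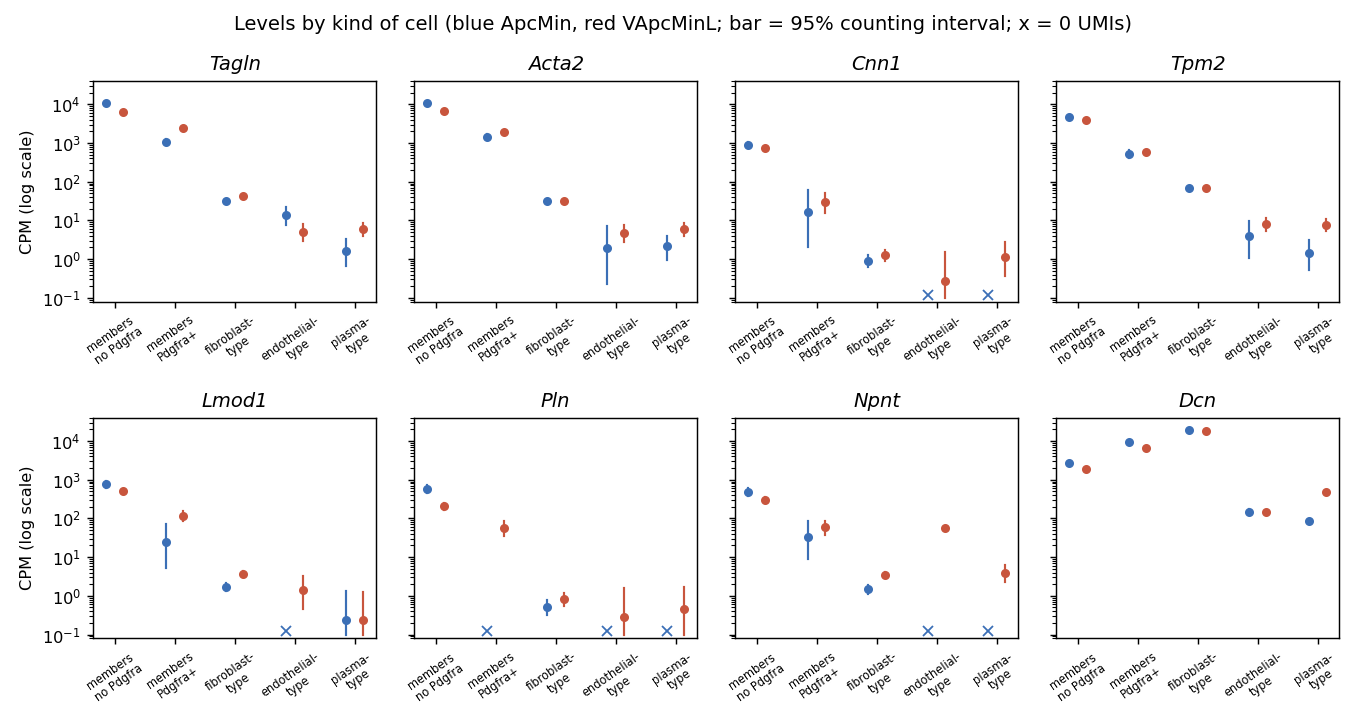
Levels of 8 muscle, matrix and fibroblast genes, in CPM (log scale), of the UMIs summed over *Pdgfra*- members, *Pdgfra*+ members and fibroblast-type, endothelial-type and plasma-type cells, for ApcMin (blue) and VApcMinL (red), where bars are 95% counting intervals and a cross marks 0 UMIs. *Tagln* stands at 10674 and 6324 CPM in *Pdgfra*- members, 1067 and 2379 in *Pdgfra*+ members and 31.8 and 41.7 in fibroblast-type cells.

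Within the *Pdgfra*- members, 3 genes divided the cells without overlap. *Notch3*, a receptor of vascular mural cells (chr17:32120820-32166852, minus strand), was found in 24 of 77. *Hhip*, a hedgehog-binding protein and hedgehog target (chr8:79965851-80058006, minus strand), was found in 24, and *Chrm2* (chr6:36388084-36528414, plus strand) in 12. No cell had UMIs of more than 1 of the 3, and 17 had none. These genes were chosen after their values were seen, so the resulting sets are ranges of cells by their own counts and not established types. The 17 without any of the 3 were shallow in VApcMinL, with a median of 1832 UMIs in its 15 cells, so their position is unresolved. By library, *Notch3* was found in 8 of 17 ApcMin (47.1%, 23.0 to 72.2) and 16 of 60 VApcMinL members (26.7%, 16.1 to 39.7), *Hhip* in 5 (29.4%) and 19 (31.7%), and *Chrm2* in 2 (11.8%) and 10 (16.7%). After thinning to 1000 UMIs, the *Notch3* shares were 17.6% and 16.7%, and the unthinned intervals overlapped. Another count asked for at least 2 of 8 vascular genes (*Rgs5*, *Notch3*, *Kcnj8*, *Abcc9*, *Higd1b*, *Ndufa4l2*, *Cox4i2* and *Gja4*) in place of *Notch3*. It was met by 10 of 17 ApcMin (58.8%, 32.9 to 81.6) and 28 of 60 VApcMinL members (46.7%, 33.7 to 60.0), or 23.5% and 25% after thinning. These cells included both *Chrm2* members of ApcMin and some VApcMinL members without *Notch3*, among them *Chrm2* and *Hhip* members. The count is therefore not a vascular identity.

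The *Notch3* members also carried other genes of vessel walls. *Gja4*, a connexin of vessel walls, was at 449 and 287 CPM in the *Notch3* members of ApcMin and VApcMinL, and had 0 UMIs in the *Hhip* and *Chrm2* members of both libraries. *Hey2*, a Notch target, was at 353 and 71.8 CPM, and had 0 UMIs in the *Hhip* and *Chrm2* members likewise. The Notch ligand *Jag1* was at 401 and 483 CPM, and was found in 8 of 8 and 13 of 16 cells. *Pln* was at 1138 and 470 CPM, found in 7 of 8 and 6 of 16, and had no UMI in any of the 24 *Hhip* members. *Sorbs2* was at 1138 and 770 CPM against 0 in *Hhip* members, and *Mef2c* at 1074 and 627 CPM against 28.0 and 73.5.

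*Rgs5*, a regulator of G-protein signalling that marks pericytes, was found in 5 of 8 and 13 of 16 *Notch3* members. It was not particular to this range, and was found in 1 of 5 and 14 of 19 *Hhip* and in 2 of 2 and 8 of 10 *Chrm2* members. Among the *Notch3* members its levels were highest in cells that lacked *Pln*. The 7 ApcMin and 6 VApcMinL *Notch3* members with a *Pln* UMI all had *Acta2*, at 13309 and 7272 CPM, and *Rgs5* at 390 and 668 CPM. The 10 VApcMinL *Notch3* members without *Pln* had *Acta2* at 1362 CPM and *Rgs5* at 7971 CPM. The only ApcMin *Notch3* member without *Pln* had no *Acta2* UMI and *Rgs5* at 7092 CPM. In VApcMinL, 3 of the 6 *Notch3* members with *Pln* and 3 of the 10 without it also carried UMIs of at least 2 endothelial genes. Other genes high in the *Notch3* members were *Gucy1a1*, at 802 and 568 CPM, *Sparcl1*, a matrix-associated glycoprotein, at 4056 and 2775 CPM, and *Ano1*, a calcium-activated chloride channel, at 176 and 137 CPM. *Ano1* also marks the interstitial cells of Cajal, but *Kit*, which defines those cells, had 0 UMIs in the *Pdgfra*- members of both libraries.

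The *Hhip* members carried *Npnt*, hedgehog-response genes and visceral actin. *Npnt* was found in 21 of the 24 and was at 1371 and 711 CPM, against 32.1 and 39.2 CPM in *Notch3* members. The hedgehog receptor and target *Ptch1* was at 923 and 564 CPM, against 64.1 and 58.8 CPM in *Notch3* members, and *Gli1*, the transcriptional effector, had 3 and 7 UMIs. *Actg2* was at 1790 and 1618 CPM, and found in all 24, and *Cnn1* at 1902 and 852 CPM. *Igf1*, a growth factor, was at 1678 and 1115 CPM with no UMI in any *Notch3* member. *Nkx2-3* was at 979 and 803 CPM, and *Fhl1*, a LIM protein of muscle, at 1650 and 1391 CPM.

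Fibroblast transcripts were frequent in the *Hhip* members even though they had no *Pdgfra* UMI. *Adamdec1*, a metalloprotease of lamina propria fibroblasts, was at 5259 CPM in ApcMin and 9633 CPM in VApcMinL, found in 4 of 5 and 16 of 19, and above its 1050 and 2744 CPM in fibroblast-type cells. *Dcn* was at 2490 and 4357 CPM and was found in 22 of 24. In the *Notch3* members *Dcn* was at 48.1 and 78.3 CPM and *Adamdec1* at 16 and 32.6 CPM, far below the 2675 and 3790 CPM of *Dcn* in empty droplets, which bounds what free RNA brought into those cells. The secreted Wnt-binding protein *Sfrp1* was at 811 and 1293 CPM in *Hhip* members, *Bmp4* at 196 and 398 CPM, and the mesenchymal factor *Tcf21* at 503 and 803 CPM.

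Of the 3 ranges, the *Chrm2* members had the highest *Actg2* and *Mylk* in both libraries, and the highest *Des* in VApcMinL but the lowest in ApcMin. Their summed contractile level was likewise the lowest of the 3 in ApcMin, at 46799 CPM, and the highest in VApcMinL, at 73619 CPM. In the 2 ApcMin and 10 VApcMinL cells *Actg2* was at 2682 and 3264 CPM, *Mylk* at 6834 and 7573 CPM and *Des* at 779 and 3825 CPM. The VApcMinL level of *Des* rested largely on 1 cell, which held 255 of its 395 UMIs. *Tnnt2*, a troponin best known from the heart, was at 346 and 1733 CPM, found in 1 of 2 and 8 of 10, and had 0 UMIs in the 24 *Notch3* and 24 *Hhip* members. Some of the members with none of the 3 genes carried it too. *Synm* was at 86.5 and 1230 CPM, *Synpo2* at 519 and 1424 CPM and *Ryr2*, a calcium release channel, at 346 and 203 CPM. *Grem1*, a secreted BMP antagonist, was at 1085 CPM in the VApcMinL cells, found in 6 of 10, and had no UMI in the 2 ApcMin cells. Of the striated muscle list, *Ttn*, *Acta1*, *Myh1*, *Myh4*, *Tnnt3*, *Tnni2* and *Tnnc2* had 0 UMIs in the *Pdgfra*- members of both libraries, and *Actc1* had 7 and 17.

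**Figure D3:**
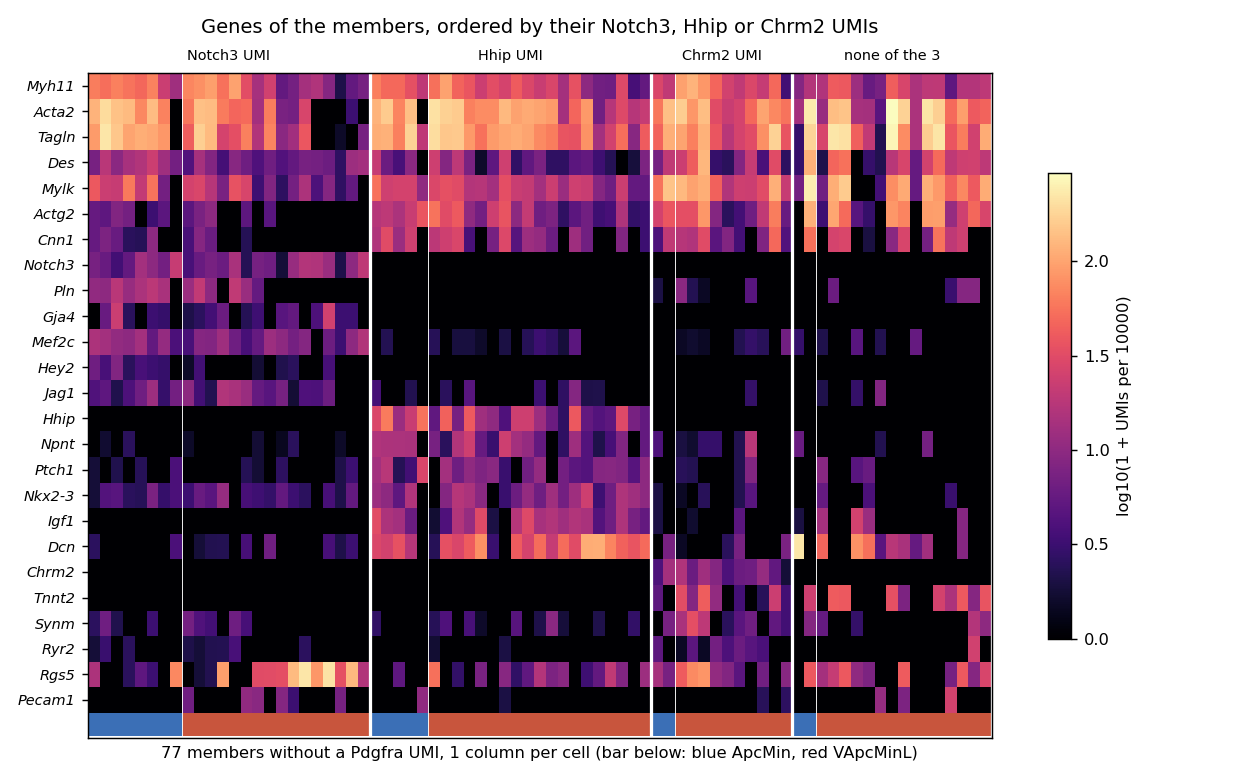
UMIs per 10000 (colour, log scale) of 25 muscle, vascular, fibroblast and endothelial genes in each of the 77 *Pdgfra*- members (columns), ordered by their *Notch3*, *Hhip* or *Chrm2* UMIs and by library (strip at the bottom, ApcMin blue and VApcMinL red). *Pln* and *Gja4* lie mostly in the *Notch3* block, *Igf1* and *Ptch1* mostly in the *Hhip* block, and *Tnnt2* in the *Chrm2* block and among the cells with none of the 3.

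For the comparison of genotypes, UMIs were summed over the *Pdgfra*- members of each library, 121326 in ApcMin and 472324 in VApcMinL. Of 839 genes with at least 100 UMIs, 74 (8.82%) were more than 2-fold higher in VApcMinL and 15 (1.79%) more than 2-fold lower. The median log2 ratio over them was 0.06. With 1 library a genotype, these counts describe sizes and have no replicate check. Fewer cells of a subset and less RNA per cell cannot be told apart in such sums.

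The contractile list had lower levels in VApcMinL without any gene past 2-fold. Its 13 genes with enough UMIs had 0 past 2-fold in either direction, with a median log2 ratio of -0.35. The summed level of all 14 genes was 57490 CPM in ApcMin and 41796 CPM in VApcMinL, a ratio of 0.727 (0.707 to 0.747). The largest departures were *Tagln*, at 0.592 (0.555 to 0.633), and *Acta2*, at 0.621 (0.583 to 0.663), whereas *Actg2* stood at 1.39 (1.15 to 1.68), or a log2 ratio of -0.0183 after thinning to 1000 UMIs, and *Smtn* (smoothelin) at 1.44 (0.959 to 2.24). In single cells the 14 genes together made up 38.4 to 1728 UMIs per 10000 in ApcMin, with a median of 599.6, and 25.6 to 1266 in VApcMinL, with a median of 329.6. The 17 ApcMin values lay within or above the VApcMinL range, and the cells of both libraries were interleaved. Part of the lower VApcMinL sum came from a few cells, since without the 10 members that carried endothelial genes the ratio was 0.880.

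Apart from the matrix and vascular genes, the other muscle lists had at most 1 gene past 2-fold in each direction, where the background was 8.82% higher and 1.79% lower. Dense bodies and intermediate filaments had 1 of 20 higher (*Synm*) and 0 lower, with a median of -0.27. Transmitter receptors and relaxation had 0 of 11 in either direction, with *Ppp1r12b*, a subunit of myosin phosphatase, at 0.553 and *Pde5a*, which degrades cyclic GMP, at 1.01. Dystrophin, integrins and caveolae had 1 of 8 higher, which was *Cavin2*, a caveolar coat protein also found in endothelium, at 2.79 (1.58 to 5.36), and at 1.90 (1.04 to 3.75) without the 10 members that carried endothelial genes. Among regulators 1 of 6 was higher, *Tcf21* at 2.08 (1.32 to 3.45), and 1 lower, *Mef2c* at 0.462 (0.343 to 0.628). Of the 4 calcium genes 1 was lower, *Pln* at 0.350 (0.255 to 0.481). The 2 genes of energy supply, *Ckb* and *Aldoa*, were at 0.841 and 0.742.

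Matrix genes had 3 of 9 past 2-fold and higher and 0 lower, with a median log2 ratio of 0.41. Over all 839 genes 8.82% were higher and 1.79% lower. *Fn1* (fibronectin) was at 74.2 CPM in ApcMin and 356 CPM in VApcMinL, a ratio of 4.79 (2.47 to 10.7), and was found in 5 of 17 and 34 of 60 members. *Fbln5*, which organises elastic fibres, had 4 and 127 UMIs, a ratio of 8.16 (3.11 to 30.4), and *Mfap4*, a microfibril protein, was at 2.33 (1.43 to 4.02). *Sparcl1* was at 0.606 and *Npnt* at 0.618. Among fibroblast genes 1 of 7 was past 2-fold, *Adamdec1* at 2.78 (2.39 to 3.24), while *Dcn* was at 0.700, with a log2 ratio of 0.35 after thinning, and *Col3a1*, a fibrillar collagen, at 1.83. Fibroblast-type cells had *Adamdec1* at 1050 CPM in ApcMin and 2744 CPM in VApcMinL.

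**Figure D4:**
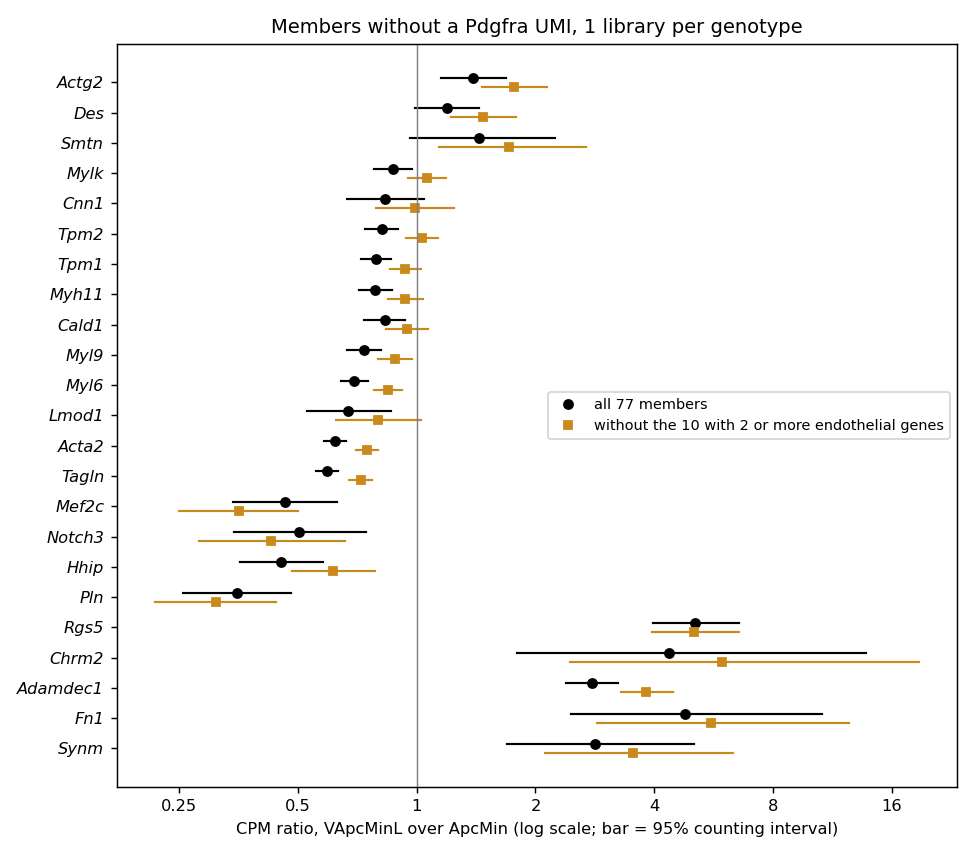
Ratio of VApcMinL to ApcMin CPM (log scale) for 23 muscle, vascular, matrix and fibroblast genes in the 77 *Pdgfra*- members (black) and without the 10 that carried endothelial genes (orange), where lines are 95% intervals that cover counting error only. *Tagln* and *Acta2* lie below 1 at 0.592 and 0.621, and *Rgs5* and *Synm* lie above it at 5.07 and 2.83.

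Vascular genes separated. *Rgs5* was at 569 CPM in ApcMin (69 UMIs in 9 of 17 cells) and 2884 CPM in VApcMinL (1362 UMIs in 45 of 60 cells), a ratio of 5.07 (3.98 to 6.56). The single-cell values ran from 0 through a median of 1.49 to 70.9 UMIs per 10000 in ApcMin and from 0 through 7.73 to 225 in VApcMinL, with overlap across most of the range. After thinning, *Rgs5* was found in 35.3% and 56.7% of cells, and in plasma-type cells in 0.517% and 1.76%. The ratio of summed UMIs held its direction in each range of cells. It was 6.6 (4.91 to 9.06) in *Notch3* members, 11.2 (3.78 to 55.1) in *Hhip* members, where ApcMin had 3 UMIs, and 3.15 (1.86 to 5.82) in *Chrm2* members. In VApcMinL 1 *Hhip* cell held 75 of 154 *Rgs5* UMIs, and single *Chrm2* cells held 170, 114 and 83 of 394. The summed ratios of these ranges thus rested largely on few cells, with only 2 ApcMin cells in the *Chrm2* range. Other genes of the vascular list had the opposite order. *Mustn1*, a small nuclear protein of the musculoskeletal system, was at 0.311 (0.25 to 0.389), and *Rgs4*, a regulator of G-protein signalling, at 0.376 (0.249 to 0.574). Below 100 UMIs in all, and so outside the counts above, *Rergl*, a small GTPase-like protein of mural cells, was at 0.246, *Map3k7cl* at 0.132 and the Notch target *Hey2* at 0.128. Of the 6 vascular genes with enough UMIs 1 was past 2-fold higher and 2 lower, with a median log2 ratio of -0.98. The shares over all 839 genes were 8.82% higher and 1.79% lower.

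The ranges were also compared separately. In summed UMIs, the lower contractile level of VApcMinL was seen in the *Notch3* and *Hhip* members and not in the *Chrm2* members. In *Notch3* members (8 and 16 cells) all 13 genes were lower, with ratios from 0.301 to 0.625 and a median of 0.440. In *Hhip* members (5 and 19 cells) all 13 were lower, from 0.448 to 0.904 with a median of 0.563. In *Chrm2* members none was lower and the ratios ran from 1.11 to 2.78, but only 2 ApcMin cells contributed. The median *Chrm2* member was nevertheless lower in VApcMinL, at 383 UMIs of the contractile list per 10000 against 646 in ApcMin. Whether the ranges differ in this respect was not tested. Without the members that carried endothelial genes, 10 VApcMinL cells remained in the *Notch3* range, in which *Acta2* was at 0.538, *Tagln* at 0.546, *Myh11* at 0.932 and *Lmod1* at 1.01. In the *Notch3* members *Tagln* was at 12811 CPM in ApcMin and 3859 CPM in VApcMinL, with single-cell medians of 102 and 20.5 UMIs per 10000 and overlapping cells, from 0 to 222 in ApcMin and from 0 to 168 in VApcMinL. The make-up of this range moved with the difference, since 7 of 8 ApcMin but 6 of 16 VApcMinL *Notch3* members had a *Pln* UMI.

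**Figure D5:**
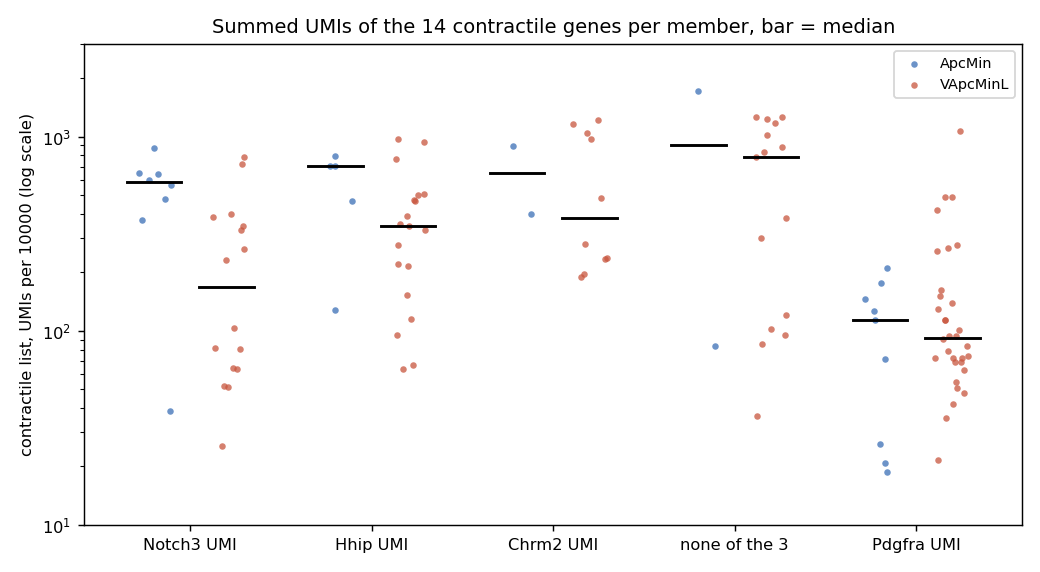
Summed UMIs of the 14 contractile genes per 10000 UMIs of each member (log scale) by range of cells, for ApcMin (blue) and VApcMinL (red); each point is 1 cell and the bar is the median. The *Notch3* medians are 581 and 167, the *Hhip* medians 708 and 345 and the *Chrm2* medians 646 and 383, with overlapping cells. The *Pdgfra*+ medians are 114 and 92.0.

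The genes with the largest ratio to VApcMinL came mostly from a few cells with endothelial transcripts. *Ly6c1*, *Ptprb*, *Flt1* and *Adgrf5*, all of endothelium, had 0 UMIs in ApcMin and 205, 187, 156 and 122 UMIs in VApcMinL. With a floor of 3 UMIs in ApcMin this is 17.6-fold, 16-fold, 13.4-fold and 10.4-fold higher. The lower ends of the exact intervals against 0 UMIs were 14.1, 12.9, 10.7 and 8.37. *Cd36*, a fatty acid transporter of capillaries, had 1 and 170 UMIs, the latter from 8 cells. Summed over the 8 endothelial genes of the list, the level was 33.0 CPM in the ApcMin and 1141 CPM in the VApcMinL members, with 0 to 9.15 and 0 to 94 UMIs per 10000 in single cells. *Kdr*, *Cdh5*, *Flt1* and *Egfl7* had 0 UMIs in ApcMin, and *Mmrn1* had 0 in both. UMIs of at least 2 of the 8 were found in 10 of 60 VApcMinL and 0 of 17 ApcMin members, and 6 of the 10 were *Notch3* members. Of these 10 cells, 5 were among the highest Scrublet scores, and the part that doublets had in them was not tested further. Without the 10, none of the UMIs of *Ptprb*, *Flt1* and *Adgrf5* remained and 2 of *Ly6c1* did, and *Slc6a6*, a taurine transporter whose ratio was 10.4 (3.46 to 50.9), went to 1.06.

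Several other large ratios stayed past 2-fold without those cells. *Grem1* had 1 UMI in ApcMin and 150 in 13 VApcMinL members, a ratio of 38.5 (6.81 to 1532), and 41.7 without the 10 cells. *Igfbp3*, a binding protein of insulin-like growth factors, had 1 and 156 UMIs, a ratio of 40.1 (7.09 to 1593), and 31.8 without them. *Rgs5* stood at 5.06 without them and *Adamdec1* at 3.82. *Fbln5* went from 8.16 to 5.39, since 66 of its 127 VApcMinL UMIs lay in the 10 cells. *Tnnt2* had 7 and 220 UMIs, a ratio of 8.07 (3.85 to 20.3), and 10.6 without them. *Edn1*, which encodes the vasoconstrictor endothelin, had 0 and 101 UMIs, 8.65-fold higher with a floor of 3 UMIs (lower end 6.91). Of the 101, 90 lay in the 10 cells.

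At the other end stood genes of muscle and of vessel wall. Among genes with at least 100 UMIs the smallest ratio was that of *Rrad*, a small GTPase that restrains calcium channels, at 0.138 (0.0936 to 0.200). It was found in 5 of 17 and 16 of 60 members, and 1 cell held 45.2% of its 84 ApcMin UMIs. *Mustn1* and *Crip1*, a LIM protein, followed at 0.311 and 0.342, and *Crispld2*, a secreted protein, at 0.371. *Pcp4l1*, a calmodulin-binding protein, was at 0.382, *Sorbs2* at 0.434, *Rgs7bp*, which anchors regulators of G-protein signalling, at 0.438 and *Hhip* at 0.453 (0.357 to 0.578). Of the 110 ApcMin UMIs of *Hhip*, 1 cell held 42.7%. Without the 10 members with endothelial genes, *Rrad* was at 0.131, *Pln* at 0.310, *Mustn1* at 0.380 and *Crip1* at 0.309, all still past 2-fold, whereas *Hhip* was at 0.614 (0.483 to 0.784) and no longer past it.

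Genes of the niche that muscle provides to crypts were mostly sparse. Of 26 listed Wnt, BMP and growth factor genes, 5 had at least 100 UMIs in the *Pdgfra*- members. Of these, *Grem1* and *Sfrp1* were past 2-fold higher, *Sfrp1* at 2.36 (1.62 to 3.57), and *Igfbp5* lower, at 0.471 (0.351 to 0.637). Among all 839 genes with that many UMIs, 8.82% were higher and 1.79% lower. Without the 10 members with endothelial genes *Sfrp1* was at 3.03 and *Igfbp5* at 0.590, no longer past 2-fold. *Igf1* was at 511 and 470 CPM and *Igfbp7* at 1855 and 1831 CPM. The R-spondins, which potentiate Wnt signalling, had few UMIs, with 3 and 19 of *Rspo3*, 0 and 1 of *Rspo1* and 1 and 1 of *Rspo2*. In *Pdgfra*+ members *Sfrp1* was at 1445 and 1465 CPM. Of the hedgehog-response genes, 2 had enough UMIs, and *Hhip* was past 2-fold lower, though not without the 10 members with endothelial genes, while *Ptch1* was at 0.868. None of 3 Notch pathway genes was past 2-fold, with *Notch3* itself at 0.502, *Hes1* at 0.791 and *Jag1* at 0.850. Without the same 10 members *Notch3* was at 0.428, past 2-fold, and *Jag1* at 0.537. The *Notch3* log2 ratio was 0.50 after thinning, with an interval of -1.32 to 2.93.

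Markers of other cells bounded the set. In the *Pdgfra*- members the 7 genes of enteric glia and neurons summed to 8.24 and 21.2 CPM. The 6 mesothelial genes summed to 33.0 and 14.8 CPM, against 42.4 and 31.3 CPM in fibroblast-type cells. Of them, *Msln*, *Upk3b*, *Lrrn4* and *Upk1b* had 0 UMIs, and the ApcMin sum was *Wt1*, with 4 UMIs in 1 of 17 cells. The erythroid result rested on 1 Hhip-positive VApcMinL cell that held 3667 hemoglobin UMIs, or 3311 per 10000, while the next highest member held 15. With this cell 4 of 4 measured genes were more than 2-fold higher in VApcMinL, from 5.06 to 8.57. Without it the direction reversed, with all 4 lower, from 0.285 to 0.470, and the list summed to 1203 CPM in ApcMin and 453 CPM in VApcMinL, a ratio of 0.377 (0.303 to 0.468). In the empty droplets the erythroid list stood at 70809 CPM in ApcMin and 20657 CPM in VApcMinL. *Fabp1*, an enterocyte protein, had 0 and 47 UMIs in *Pdgfra*- members, and stood at 3.83 and 76.5 CPM in fibroblast-type cells. The epithelial list was at 432 and 5653 CPM in the empty droplets. Genes induced by tissue dissociation were high in both libraries, with *Fos* at 8250 and 4958 CPM. Of the 16 listed, 2 were past 2-fold higher in VApcMinL, *Ier3* at 3.72 (2.31 to 6.38) and *Dnajb1* at 2.53 (1.59 to 4.23), and 0 lower. Over all 839 genes 8.82% were higher and 1.79% lower. Of the 197 VApcMinL UMIs of *Dnajb1*, 131 lay in the 10 members with endothelial genes, and without them its ratio was 1.17 (0.699 to 2.03) and that of *Fos* 0.398. The part of these genes in the other differences was not tested. Of the 8 listed cycling genes, *Birc5*, *Ube2c*, *Cdk1*, *Mcm2* and *Ccnb1* had 0 UMIs in the *Pdgfra*- members. *Mki67* and *Top2a* had 4 and 6, all in VApcMinL. *Pcna*, the remaining gene of this list, was found in 2 ApcMin and 21 VApcMinL *Pdgfra*- members. The whole list summed to 33.0 CPM in ApcMin and 80.5 CPM in VApcMinL.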

How the data were processed

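Lamina propria cells negative for DAPI, Ter119, EpCAM and CD45 were sequenced on the 10x 3′ platform, 1 library per genotype. The authors made UMI counts with Cell Ranger, given as 2.1.1 in the submitters' processing notes, which also name Seurat 3.1.1 and the builds mm10 and GRCm38. The deposited files hold raw counts for 31053 genes and 6794880 barcodes per library, with no cell calling, filter or normalization. The free RNA was read from the empty droplets ranked 45000 to 90000 by UMIs.

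Barcodes with at least 1000 UMIs and at most 20% mitochondrial UMIs were taken as cells, and members by the rule given above. Members were kept whatever their doublet score, and leaving out the highest Scrublet scores at 0.8% per 1000 cells was an alternative. UMIs were summed over members and divided by the summed total (CPM). Intervals are 95% Clopper-Pearson for shares, Poisson for levels and conditional binomial for ratios, and a ratio against 0 UMIs used 3. With 1 library per genotype no p-value was computed. Ratios were taken for genes with at least 100 UMIs. The genes named are those of the gene lists, the 20 highest over fibroblast-type cells with a pseudocount of 10 CPM, and the 10 largest and 10 smallest ratios among genes with a larger CPM of no less than 2 times the level in empty droplets. Mitochondrial, Y-linked, Xist, immunoglobulin and hemoglobin genes and genes held mainly by 1 cell were left out of those ratios. The members and the lists were chosen with earlier results of these data known, and the *Notch3*, *Hhip* and *Chrm2* ranges, and the genes named for them that are on no list, after their values were seen. The calculations were tested on simulated data. Scripts ran under Python 3.11.15 with scanpy 1.11.5, matplotlib 3.10.9, pandas 2.3.3, scipy 1.17.1 and numpy 2.4.6.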

Additional observations from a re-analysis of the deposited data

How the results depend on the processing

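No paired analysis was possible because a single library represents each genotype, and for the same reason no replicate could be left out. The ratio of member shares stayed between 2.75 and 3.65 over the alternatives. The ratio of the summed contractile level, 0.727, was 0.804 with *Myh11* at 5 UMIs or more, 0.647 with a mitochondrial limit of 10%, 0.759 without the highest Scrublet scores, 0.750 as a mean of per-member CPM, 0.861 over all members and 0.880 without the members with 2 or more endothelial genes, and so kept its direction. Thinning to 1000 UMIs gave shares with a vascular profile of 23.5% in ApcMin and 25% in VApcMinL, and a *Pdgfra*+ share of 17.4% in VApcMinL. The count of genes more than 2-fold higher was 455 of 3362 at 30 UMIs or more and 42 of 625 without the members with endothelial genes, and that of genes lower was 127 at 30 UMIs or more, 74 after thinning and 36 of 1937 over all members. The log2 ratio turned to 0.0328 for *Mylk* with *Myh11* at 5 UMIs or more and to 0.0847 without the members with endothelial genes, to 0.0435 for *Tpm2* without those members, to 0.0732 for *Cald1* over all members, and, after thinning, to -0.0183 for *Actg2*, 0.50 for *Notch3* and 0.35 for *Dcn*. The cause was not tested. Of 540 gene values over 50 genes, 519 kept their sign. The alternatives that leave out the members with endothelial genes and the member with the most hemoglobin were chosen after seeing the data. Depth limits the scarce genes, since 3 UMIs equal 24.7 CPM in the 17 ApcMin members.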
